A study of Mus musculus with 12 samples.

Results

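In the targeted extracellular matrix (ECM) and adhesion panel of mouse pancreatic stellate cells (PSCs), 166 of 420 genes were barely read or not read at all. They were chosen from the measurement itself, as every gene whose normalised count was under 10 in each of the 12 libraries, and they made up 39.5% of the panel. No read was assigned to 77 of them in any library, and the other 89 had at least 1 read. The remaining 254 panel genes reached 10 in at least 1 library. A normalised count is the number of reads of a gene in a library divided by that library's size factor, so these low values describe what the assay read and not whether a transcript was absent from the cells.

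The PSCs were isolated on a density cushion from the pancreas of a male Rosa26CreERT2 PKN2 fl/fl mouse of C57BL/6 background and immortalised with SV40 large T. Recombination of the floxed PKN2 alleles was induced in culture with 4-hydroxytamoxifen to give PKN2 KO cells (how WT cells were handled is not given in the sources used here). Cre under Rosa26 is not specific to a cell type. Cells of both genotypes were kept for 72 h with vehicle or with TGF-β1 at 5 ng/ml, which gives 4 groups of 3 libraries named A, B and C. The methods describe cells of 1 mouse, the series' design speaks of separate lines, and the study counts its in vitro replicates as biological. Which of these A, B and C stand for is not given in the sources used here, so that p-values measure the spread between these libraries only. Pkn2 itself was not analysed here, and the deletion was therefore not checked in the libraries.

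Stellate cells are the resident fibroblasts of the pancreas that store vitamin A when quiescent, and when activated they become myofibroblasts that lay down fibrillar collagen and fibronectin. A panel built for matrix and adhesion in every tissue also carries the adhesion systems of other lineages: the homophilic cadherins and protocadherins by which neurons and epithelia recognise their own kind, the β2 integrins and C-type lectins of leukocytes, the protease inhibitors of plasma and keratinising epithelium, and the perineuronal proteoglycans of brain. TGF-β1 signals through SMAD factors, which bind short CAGAC elements and activate matrix genes in fibroblasts.

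The libraries held between 1074095 and 1473153 reads on the panel. In that total the 166 genes took 999 reads, 0.00657% of all reads, and 1616 of their 1992 values, 81.1%, were 0. A gene with no read in the 12 libraries is limited to 0.197 CPM (counts scaled to an equal total in every library), which is the level that 3 reads over all libraries would give and covers counting error only. Within a library, 3 reads were worth 2.03 to 4.10 normalised counts. Some fibroblast matrix genes were far higher: Col1a1 averaged 181100 normalised counts, Sparc 98580 and Fn1 35010. Others were not, since 10 of the 26 fibroblast and stellate markers listed below averaged under 10, and Dcn (decorin) averaged 15.4. Counts of different genes in an amplicon panel also depend on the primers of each gene, and no tissue known to express the unread genes was among the libraries. Whether the primers of the 77 unread genes work was thus not tested, and "not expressed" is used for none of them.

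The promoters of genes whose low counts moved with TGF-β1 are shown first, because TGF-β1 acts through a known DNA element. RefSeq promoter entries (GRCm38.p6, 250 bases before to 50 after the start) existed for 6 of the 14 genes called in any comparison below. Each sequence is written 5′ to 3′ on the gene's strand, with the letters CAGAC or their complement GTCTG in capitals. Adamts18 lies at chr8:113848790-113849089 on the minus strand, Mfap2 at chr4:141010174-141010473 and Spock2 at chr10:60106007-60106306, both on the plus strand.
Adamts18: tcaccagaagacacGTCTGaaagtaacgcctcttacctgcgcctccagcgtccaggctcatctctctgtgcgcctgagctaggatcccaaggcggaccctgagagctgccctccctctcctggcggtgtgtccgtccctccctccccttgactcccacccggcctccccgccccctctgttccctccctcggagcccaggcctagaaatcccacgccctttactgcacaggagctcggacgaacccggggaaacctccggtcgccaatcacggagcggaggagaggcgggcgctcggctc
Mfap2: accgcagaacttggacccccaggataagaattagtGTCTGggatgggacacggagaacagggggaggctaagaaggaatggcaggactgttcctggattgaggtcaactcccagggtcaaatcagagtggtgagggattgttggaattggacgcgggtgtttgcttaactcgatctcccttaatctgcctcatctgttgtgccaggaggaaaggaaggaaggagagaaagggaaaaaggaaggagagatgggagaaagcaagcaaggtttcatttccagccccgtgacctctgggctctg
Spock2: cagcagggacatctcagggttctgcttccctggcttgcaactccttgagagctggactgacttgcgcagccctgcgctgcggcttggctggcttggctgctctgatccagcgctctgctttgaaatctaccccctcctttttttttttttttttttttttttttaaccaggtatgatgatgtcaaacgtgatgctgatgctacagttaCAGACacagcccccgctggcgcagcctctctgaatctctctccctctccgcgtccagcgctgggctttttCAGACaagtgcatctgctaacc
Adamts18 and Mfap2 each held 1 match and Spock2 held 2. They are shown as examples picked after their values were seen. Of the other called genes with an entry, Lama2 and Mmp10 held 1 match each and Clec7a held 0. The letters were found on either strand in 49.6% of all promoters of this length, so a match here is a description of the sequence only.

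**Figure D1:**
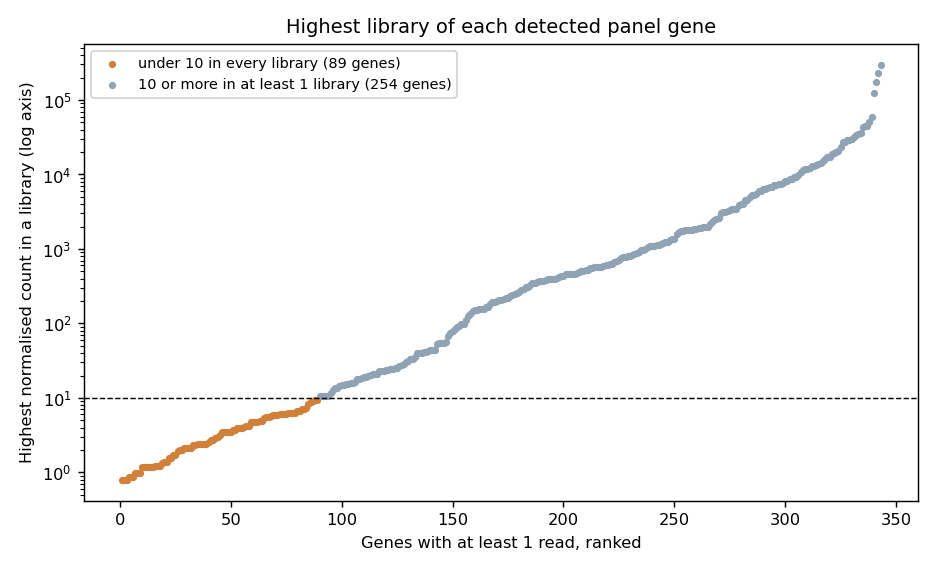
Highest normalised count in a library (log axis) for each of the 343 panel genes with at least 1 read, ranked from left to right, with the limit of 10 as a dashed line. The 89 genes under the limit and the 254 above it form 1 continuous run of points with no gap at the limit.

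The limit of 10 cut through a continuous range. Just inside it were Spock2 with 8.21 in its highest library, Adamts18 with 8.69, Itgad with 9.19, Nrxn2 with 9.38 and Itgae with 9.48. Just outside it were Serpina9 and Col28a1 with 10.55 each, Icam4 and Mfap5 with 10.6 each, Cdh10 with 10.62 and Comp with 11.7. A further measure shows how soft the edge is: 30 of the 254 genes above the limit also averaged under 10. The median of the means of those 254 genes was 366.5.

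Reads were thinly and unevenly spread within the group. Of the 89 genes with a read, 10 had 1 read in all 12 libraries together, 22 had 2 or 3, 26 had 4 to 10 and 31 had more than 10. In 50 of the genes no library held more than 3 reads, and the most that any gene had in 1 library was 13. Only Itgae and Col8a2 had a read in all 12 libraries, 30 genes had one in 6 or more, and 39 had one in 1 or 2. The 15 genes with the most reads held 49.0% of all reads of the group.

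By mean normalised count the highest were Adamts18 at 3.94, Spock2 at 3.74, Itgae at 3.08, Col23a1 at 2.78, Col8a2 at 2.73, Col24a1 at 2.61, Nrxn2 at 2.48, Adam11 at 2.46, Cdh17 at 2.36 and Muc15 at 2.22. These include a secreted protease, a testican proteoglycan, the αE integrin of intraepithelial lymphocytes, 3 minor collagens, a presynaptic neurexin, a neural ADAM without catalytic activity, an intestinal cadherin and a membrane mucin. In vehicle, and in the order A, B and C, Itgae was at 1.18, 2.03 and 3.94 in WT cells and at 1.17, 4.24 and 5.30 in PKN2 KO cells. With TGF-β1 it was at 1.18, 9.48 and 2.88 in WT and at 1.37, 1.72 and 2.44 in PKN2 KO cells. Its groups overlapped throughout. Col8a2, a short-chain collagen of corneal and vascular basement membrane, ranged in vehicle from 1.18 to 3.94 for WT and from 0.707 to 5.86 for PKN2 KO. With TGF-β1 the ranges were 1.58 to 5.77 and 2.58 to 3.66, so that all 4 groups again overlapped.

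**Figure D2:**
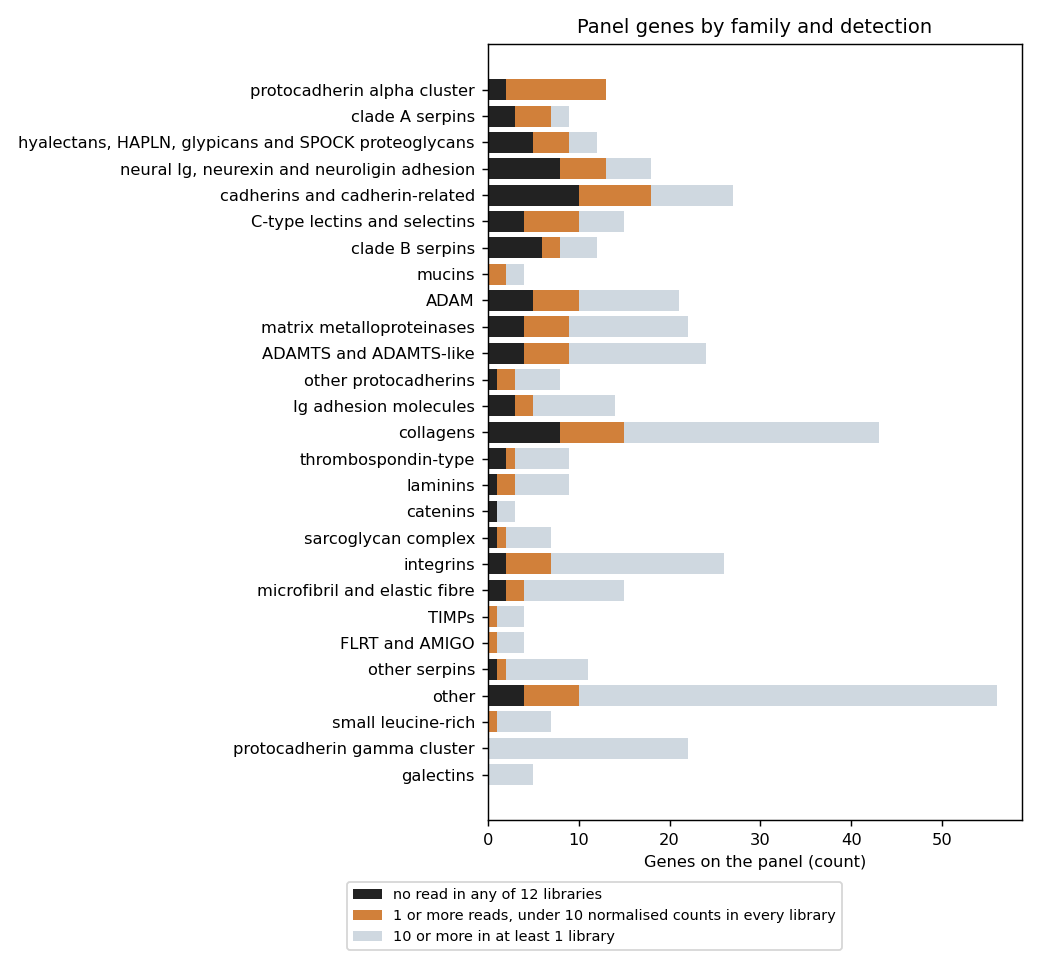
Number of panel genes in each family, split into genes with no read in any of the 12 libraries (black), genes with a read but under 10 normalised counts in every library (orange) and genes that reached 10 (grey). All 13 protocadherin alpha genes lie under 10, and none of the 22 protocadherin gamma genes and none of the 5 galectins does.

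The cell-cell adhesion families supplied the most genes. Of 27 cadherins and relatives on the panel, 18 were under 10. Cdh12, Cdh16, Cdh19, Cdh20, Cdh22, Cdh4, Cdh7, Cdh8, Cdh9 and Cdhr2 had no read, a set dominated by cadherins of neurons and glia, with kidney Cdh16 and the brush-border protein Cdhr2. Cdh1 (E-cadherin), Cdh3 (P-cadherin), Cdh5 (VE-cadherin), Cdh13, Cdh15 of muscle, Cdh17, Celsr2 and Celsr3 had reads, none above 7.08, a value that Cdh17 reached. E-cadherin, the junctional cadherin of pancreatic epithelium, had 4.72 in WT vehicle A and 0.860 in PKN2 KO TGF-β1 B and 0 in the other 10 libraries. The mesenchymal cadherins of the same family were far above the limit, Cdh2 at a mean of 1509 and Cdh11 at 3178.

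The neural immunoglobulin, neurexin and neuroligin group contributed 13 of 18 genes. Astn1, Cadm3, Chl1, Cntn1, Mag, Ncam2 and Nlgn1 were among those at 0 in every library, and Cadm1, Cntn4, Nfasc, Nrcam and Nrxn2 had reads. Ncam1 and L1cam, which belong to the same group, averaged 3674 and 1351, so that low counts did not extend to neural adhesion genes as a class. Among the other immunoglobulin adhesion molecules Cd226, Cd84 and Ceacam5 had no read, and Icam2 and Madcam1, ligands for leukocyte integrins, had up to 3.18.

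**Figure D3:**
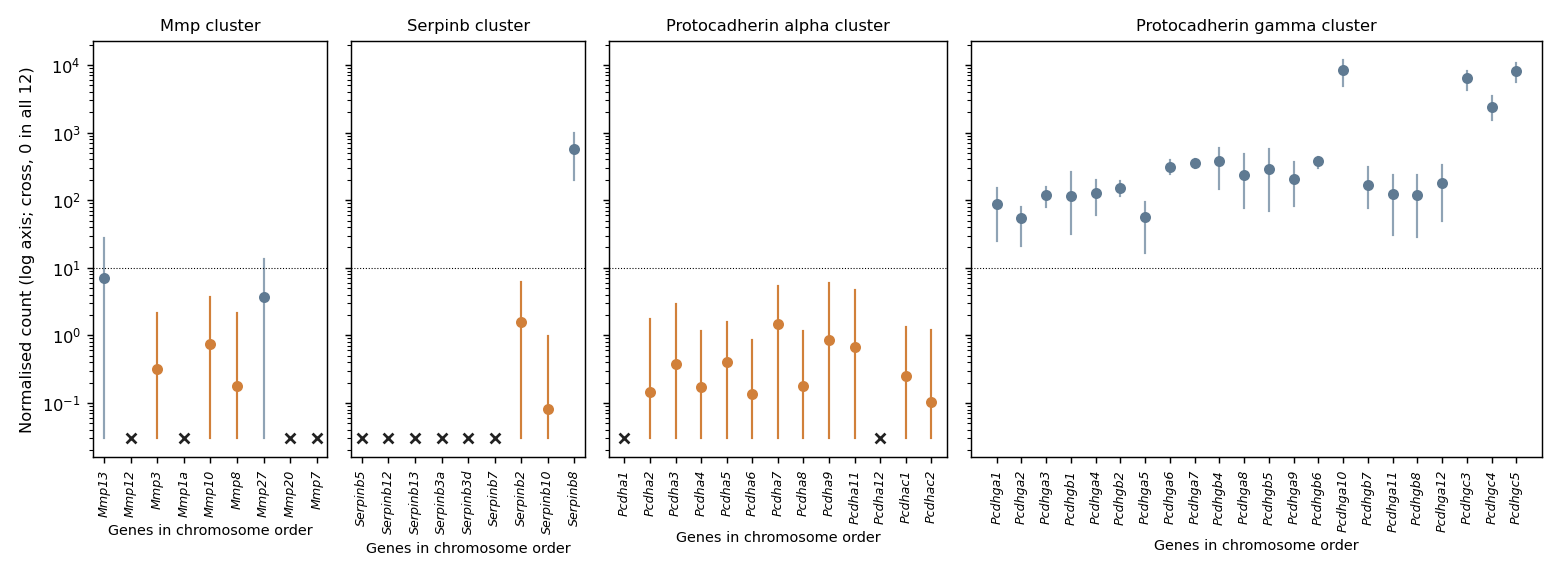
Mean normalised count (points) and range over the 12 libraries (lines, which run to the bottom where the lowest library is 0) on a log axis for the genes of 4 chromosomal clusters in chromosome order, with genes at 0 in all libraries as crosses and the limit of 10 as a dotted line. The protocadherin alpha genes average up to 1.47 while the protocadherin gamma genes average 54.4 to 8505.

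The sharpest contrast by position was between the clustered protocadherins of chromosome 18. These genes give neurons a combinatorial surface identity, and each isoform joins its own first exon to exons shared by the cluster. All 13 alpha genes were under 10. Pcdha1 and Pcdha12 had no read, Pcdha2, Pcdha3, Pcdha4, Pcdha5, Pcdha6, Pcdha8, Pcdha9, Pcdha11, Pcdhac1 and Pcdhac2 averaged 0.102 to 0.844, and Pcdha7 was highest by mean at 1.47. None of the 22 gamma genes was under 10, with means from 54.4 for Pcdhga2 to 8505 for Pcdhga10. Because isoforms of a cluster share exons, reads could be split between them by the counting, and the values of single isoforms are uncertain. Of the protocadherins outside the clusters, Pcdh8 had no read, and Pcdh11x and Pcdh17 had at most 1.92.

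Clade B serpins, the intracellular protease inhibitors of keratinocytes and myeloid cells, showed a similar run. In the cluster at chr1:106861173-107610484 (GRCm38), 8 of the 9 panel genes were under 10 and 6 of them, Serpinb5, Serpinb12, Serpinb13, Serpinb3a, Serpinb3d and Serpinb7, had no read. Serpinb2 averaged 1.55 and Serpinb10, which overlaps it on the map, had 1 read. Serpinb8 at the end of the run averaged 571.2. Serpinb3a and Serpinb3d are near-identical copies whose reads may not be separable. Clade B genes outside this cluster were well read, such as Serpinb6a with a mean of 29320.

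Clade A serpins, secreted mainly by liver, gave 7 of 9 genes. Serpina1e, which has near-identical copies, Serpina7 and Serpina10 had no read. Serpina5, Serpina6, Serpina11 and Serpina12 had up to 6.73. In the run of 8 panel genes at chr12:103614786-104414329, the 2 exceptions were Serpina9 and Serpina3n with means of 4.88 and 5.31. Serpini2, a pancreatic serpin, also had no read, and Serpine3 had at most 2.37.

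Matrix metalloproteinases and their relatives were divided in the same way. Under 10 were 9 of 22 metalloproteinases, and 7 of these lie among the 9 panel genes at chr9:7272514-7699585. Mmp1a, Mmp7, Mmp12 and Mmp20 had no read. Mmp3 (stromelysin 1), Mmp8 (neutrophil collagenase) and Mmp10 (stromelysin 2) had up to 3.66, whereas their neighbours Mmp13 and Mmp27 averaged 7.15 and 3.74 and passed 10 in some library. Mmp24 and Mmp25, 2 membrane-anchored enzymes encoded elsewhere, had up to 4.24. The gelatinase Mmp2 and the membrane enzyme Mmp14 averaged 6775 and 10420, whereas Mmp3, which is also listed as a fibroblast gene, averaged 0.315 from 4 reads. Of the inhibitors only Timp4 was under 10, with a mean of 0.355 against 12880 for Timp1, 8552 for Timp2 and 2266 for Timp3.

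In the ADAM family 10 of 21 genes were under 10. Adam2, Adam7, Adam28, Adam29 and Adamdec1 had no read, and Adam11, Adam18, Adam20, Adam22 and Adam30 had reads. Adam2, Adam7, Adam18, Adam20, Adam29 and Adam30 are genes of testis and epididymis. The ADAMTS and ADAMTS-like family gave 9 of 24 genes, with Adamts15, Adamts17, Adamts19 and Adamts20 at 0 and Adamts3, Adamts13, Adamts16, Adamts18 and Adamtsl1 read.

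Of the 43 collagen chains 15 were under 10. Col13a1, Col22a1, Col25a1, Col26a1, Col6a5, Col6a6, Col9a1 and Col9a2 had no read, and Col4a3, Col4a4, Col8a2, Col17a1, Col19a1, Col23a1 and Col24a1 had up to 7.08. Several are transmembrane collagens (Col13a1, Col17a1, Col23a1, Col25a1), 2 are chains of the glomerular basement membrane (Col4a3, Col4a4) and 2 are cartilage chains (Col9a1, Col9a2). Their abundant relatives Col4a1 and Col4a2 averaged 399.7 and 6314. Lysyl hydroxylase 1, encoded by Plod1 and needed to crosslink collagen, was also under 10 with a mean of 2.10 and a highest library of 4.88. Its paralogues Plod2 and Plod3 averaged 3847 and 483.8. Fibroblasts generally express Plod1, and its primers were not tested here.

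Proteoglycans of brain and cartilage formed another part. Gpc5, Hapln1, Ncan, Spock1 and Spock3 had no read, and Bcan, Gpc3, Hapln3 and Spock2 had up to 8.21, 9 of 12 genes in all. Among basement membrane and elastic fibre genes, Lama1, Fbn2 and Mmrn1 had no read and Lama2, Lama3, Mfap2 and Mfap4 had up to 6.36. Lum (lumican) was the 1 small leucine-rich proteoglycan of 7 under 10. Lama2 and Lum are commonly taken as fibroblast genes, and their low counts go with those of Mfap4, Mmp3 and Thbs4, the other fibroblast-listed genes under 10.

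The remaining genes were scattered. Integrins Itga4 and Itgal had no read, and Itgad, Itgae, Itgam, Itgax and Itgb6 had up to 9.48, making 7 of 26. The C-type lectin and selectin group gave 10 of 15, with Cd209d, Clec4e and Sele among those at 0 and Clec1a, Clec7a, Lyve1, Selplg, Siglec1 and Stab1 read at up to 4.69. Thbs4, Thsd7b, Sgcz, Ctnna2, Cd36, Crtac1, Frem2 and Syt1 had no read. Thsd4, Flrt1, Muc13, Muc15, Cma1, Habp2, Hc, Plod1, Reln and Vtn had reads, of which Muc15 reached the highest value, 7.42.

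The genes with no read had the longest median span on the chromosome. The median span from first to last annotated base (GENCODE, GRCm38) was 77.7 kb for the 77 genes with no read, with quartiles of 23.3 and 238, and 43.0 kb for the 89 with a read. It was 35.1 kb for the other 254 panel genes. The ranges overlap widely, and length was not tested as a property of the group.

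Lists of lineage markers, chosen with earlier results known, describe the same genes by cell type. Of 19 leukocyte markers 17 were under 10, and Itga4, Itgal, Clec4e, Cd209d, Cd84, Cd226 and Mmp12 were among those at 0 in every library. Their highest member was Itgae, and the 17 genes summed to at most 15.6 in any library. The exceptions were Itgb7 with a mean of 156.5 and Itgb2 with 13.5. Of 25 neural and glial markers 21 were under 10, with 12 at 0, among them Ncan, Mag, Syt1 and Cntn1, and the sum of the 21 stayed between 2.36 and 14.8. The highest of them was Nrxn2.

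Of 15 epithelial markers 11 were under 10, Muc15 was the highest of them and Cdh16, Cdhr2, Serpinb5 and Mmp7 were at 0. Of 12 endothelial markers 7 were under 10, Cdh5 was the highest and Mmrn1 and Sele were at 0. Liver and plasma genes gave 9 of 12 (Serpina11 highest, Serpina1e, Serpina7 and Serpina10 at 0) and testis genes 6 of 8 (Adam30 highest, Adam2, Adam7 and Adam29 at 0). For cartilage, 4 of 11 were under 10 and all 4 were at 0, Col9a1, Col9a2, Hapln1 and Crtac1. By contrast 21 of 26 fibroblast and stellate markers were above the limit, among them Col1a1, Col1a2, Col3a1, Fn1 and Postn, and Lama2 was the highest of the 5 that were not. Of the 21, 5 (Mfap5, Col14a1, Clec3b, Comp and Icam1) passed 10 in some library and averaged 3.17 to 8.81. Levels in these bulk libraries cannot tell fewer cells of a type from less RNA per cell.

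**Figure D4:**
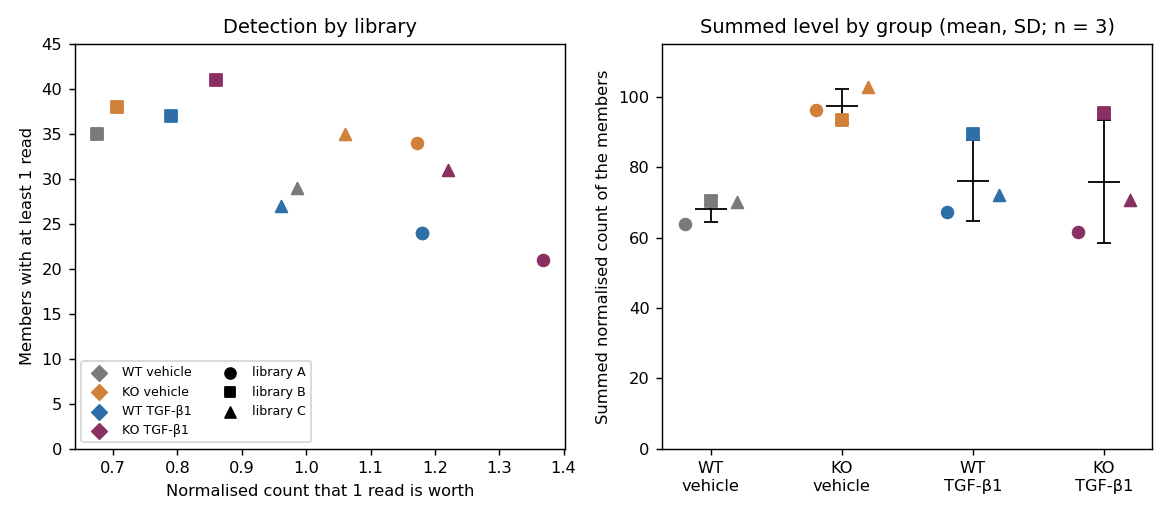
Left, number of the 166 genes with at least 1 read in each library against the normalised count that 1 read was worth (WT vehicle A and WT TGF-β1 A share 1 point). Right, summed normalised count of the 166 genes per library with the group mean and SD (n = 3), where the 3 PKN2 KO vehicle libraries lie between 93.3 and 102.8 and the 3 WT vehicle libraries between 63.7 and 70.3.

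How many of the genes were seen depended on the library. The B libraries, in which 1 read was worth the least (0.676 to 0.860 normalised counts), held a read for 35, 38, 37 and 41 of the 166 genes, against 21 to 35 in the A and C libraries. Every group has 1 B library, so this difference does not follow genotype or treatment. The summed normalised count of the 166 genes was 68.0 ± 3.70 (SD, n = 3) for WT and 97.4 ± 4.89 for PKN2 KO cells in vehicle. With TGF-β1 it was 76.2 ± 11.6 for WT and 75.9 ± 17.5 for PKN2 KO. In vehicle the genotypes did not overlap. Without Nrxn2, Itgad and Muc15, which were picked after their values were seen, the sums were 65.1 ± 3.83 in WT and 76.2 ± 7.14 in PKN2 KO, between 61.4 and 69.0 and between 68.5 and 82.7, and the genotypes met. As CPM the vehicle sums were 60.7 ± 10.2 and 83.2 ± 13.6. No test was made of these sums, because the genes were chosen by these same values.

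Single genes were compared with limma on log2(normalised count + 1) over all 343 panel genes with a read, 1 mean per group, with Benjamini-Hochberg adjustment at a threshold of 0.05. The 89 genes entered because a read fell in some library, and the limit of 10 caps how far each can differ, so counts over them are a description. A log2 difference on this scale understates the change of low genes. Of the 89 genes, 14 were called in at least 1 of 5 comparisons and 75 in none. The same count was not made over all 343 genes, and the share of all genes called is given below for each comparison. The 14 made 23 calls, and edgeR's quasi-likelihood test on the reads made 6 of these 23. Comparisons below share groups with one another and are given side by side.

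In vehicle, PKN2 KO cells had 3 genes called against WT. Nrxn2 and Pcdha7 rose and Cdh3 fell. The share of all 343 genes called was 10.5%, against 3 of the 89. With edgeR the share was 12% of all genes and 1 of the 89, Nrxn2. Groups did not overlap for 7 genes higher and 1 lower in PKN2 KO, beside 26.2% of all genes. The median log2 difference was 0 over the 89 genes and 0.17 over all 343.

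Nrxn2 (chr19:6418731-6544169), the neurexin 2 gene whose protein joins presynaptic terminals to their partners, was the clearest of these. WT vehicle libraries held 1.18, 0.676 and 0 normalised counts, from 1, 1 and 0 reads. PKN2 KO vehicle libraries held 9.38, 9.19 and 8.48, from 8, 13 and 8 reads. The lowest of the knockout values was thus above the highest WT value with wide room between. The log2 difference was 2.70 (SE 0.41, adjusted p = 0.00135 by limma, 0.0115 by edgeR), and the ratio of reads was 15.1 with a 95% counting interval (exact, Clopper-Pearson) from 3.82 to 130.5.

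Cdh3 (chr8:106510891-106557297), an epithelial and myoepithelial cadherin, went the other way. It was at 5.90, 2.70 and 5.92 in WT vehicle and at 1.17, 1.41 and 0 in PKN2 KO vehicle. The groups did not overlap and the log2 difference was -1.69 (SE 0.48, adjusted p = 0.0398 by limma). edgeR gave an adjusted p of 0.241, and the limma call was lost when any 1 of 7 libraries was left out (WT vehicle A or C, PKN2 KO vehicle A or C, WT TGF-β1 C, PKN2 KO TGF-β1 B or C), with adjusted p from 0.0504 to 0.182. Pcdha7 was at 0, 0.676 and 0 in WT vehicle and at 3.52, 2.83 and 5.30 in PKN2 KO vehicle. Its log2 difference was 2.01 (SE 0.59, adjusted p = 0.0449 by limma, 0.152 by edgeR). This call was lost without any 1 of 8 libraries (WT vehicle A or C, PKN2 KO vehicle A, B or C, WT TGF-β1 C, PKN2 KO TGF-β1 A or C), with adjusted p from 0.0512 to 0.163.

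Itgad and Muc15 had the same arrangement of values but did not pass the threshold. Itgad (chr7:128154376-128223816), the αD chain of a β2 integrin of macrophages, was at 0, 3.38 and 0.986 in WT vehicle and at 5.86, 9.19 and 4.24 in PKN2 KO vehicle, with adjusted p = 0.0517 by limma. Muc15 (chr2:110721340-110739527), a membrane mucin of epithelia, was at 1.18, 1.35 and 0 and at 3.52, 6.36 and 7.42, with adjusted p = 0.0721 by limma. Both had groups that did not overlap. So had Col23a1 (0 to 1.35 in WT vehicle, 1.41 to 6.36 in PKN2 KO vehicle), Adamts18 (0, then 0.707 to 2.34) and Col4a4 (0, then 1.06 to 2.34), none of them called in vehicle.

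The other markers of neurons, leukocytes and epithelia give the setting for Nrxn2, Itgad and Muc15. Over the neural genes under 10 other than Nrxn2 (20 genes, 12 of them at 0), sums were 4.72 to 12.8 in WT vehicle and 4.69 to 6.36 in PKN2 KO vehicle. Over the 16 leukocyte genes other than Itgad they were 2.70 to 4.72 and 3.52 to 9.54, and over the 10 epithelial genes other than Muc15 4.05 to 10.6 and 4.24 to 9.38. The genotypes overlapped in all 3 sums, which leave out the listed markers above the limit. Of those, L1cam (708.8 to 1005 in WT vehicle, 1176 to 1764 in PKN2 KO vehicle) and Nlgn3 (7.43 to 10.85, 11.66 to 12.89) were higher in PKN2 KO without overlap. Ceacam1 was lower without overlap (7.08 to 14.86, 4.69 to 5.30). Ncam1, Adam23, Itgb2, Itgb7, Muc1, Lamb3 and Lgals4 overlapped. The part of other cells in the result was not tested.

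After TGF-β1, PKN2 KO cells again had 3 genes called against WT. Spock2 and Adam30 were higher and Cdh5 was lower. Of all 343 genes 10.8% were called. edgeR called 0 of the 89 at the threshold and 9.62% of all genes. Groups did not overlap for 2 genes higher and 1 lower, beside 20.7% of all genes. The median log2 difference was 0 over the 89 genes and 0.07 over all 343.

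Cdh5 (chr8:104101625-104144511) encodes VE-cadherin, the adherens junction cadherin of endothelium. It was at 2.36, 2.37 and 6.73 in WT TGF-β1, from 2, 3 and 7 reads, and at 0 in the other 9 libraries. All of its 12 reads thus fell in 1 group. The log2 difference of PKN2 KO against WT after TGF-β1 was -2.15 (SE 0.36, adjusted p = 8.76e-04 by limma, 0.0870 by edgeR). The WT mean was 1.11 times the level that a floor of 3 reads in each knockout library would give. That value carries no counting error of the WT reads, of which libraries A and B had 2 and 3. The limma call held when each of the 12 libraries was left out in turn, with adjusted p from 0.00141 to 0.00484. The gene entered the test only through the group where it is high, so these refits are no independent support.

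Some other endothelial markers rose with TGF-β1 alongside Cdh5, while Icam2 and Cd34 fell in WT cells. In WT cells the list without Cdh5 and Cd34 summed to 13.0 to 19.6 with vehicle and 41.3 to 49.6 with TGF-β1. In PKN2 KO cells it summed to 14.8 to 24.7 and 33.0 to 37.0. Of its genes above the limit, Cd93 was 1.18 to 2.03 in WT vehicle and 11.5 to 17.7 in WT TGF-β1, and 0.707 to 2.34 and 2.44 to 10.9 in PKN2 KO. After TGF-β1 it was thus lower in PKN2 KO than in WT, without overlap. Selp (P-selectin) was 0 to 2.36 and 8.69 to 14.4 in WT, and 0 and 12.2 to 16.4 in PKN2 KO. Pecam1 was 2.36 to 2.96 and 3.84 to 11.8 in WT, and 1.06 to 6.36 and 5.47 to 14.7 in PKN2 KO. Mmrn2 was 3.54 to 12.8 and 3.54 to 11.9 in WT, and 8.20 to 15.6 and 1.37 to 8.60 in PKN2 KO. After TGF-β1 the genotypes overlapped for Selp, Pecam1 and Mmrn2. Cd34, which fibroblasts also express, was 594.8 to 598.6 and 4.74 to 10.6 in WT, and 419.6 to 667.7 and 0 to 6.84 in PKN2 KO. Icam2 went from 2.36, 2.03 and 0.986 to 0, 0.790 and 0 in WT, without overlap, and its PKN2 KO groups overlapped. With Cd34 and Cdh5 included, the list summed to 607.7 to 618.2 in WT vehicle and 52.95 to 62.54 in WT TGF-β1. In PKN2 KO that full sum was 438.3 to 682.5 and 32.96 to 43.77. Mmrn1 and Sele were at 0 in all libraries. The part of endothelial cells in the result was not tested.

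Spock2 (chr10:60106219-60135198) encodes testican 2, a calcium-binding heparan sulphate proteoglycan. It was at 0, 1.58 and 0.961 in WT TGF-β1 and at 8.21, 5.16 and 4.88 in PKN2 KO TGF-β1, and the groups did not overlap. The log2 difference was 2.01 (SE 0.48, adjusted p = 0.0129 by limma, 0.0804 by edgeR), with a ratio of reads of 6.20 and a 95% counting interval of 1.77 to 33.2. The call was lost without WT TGF-β1 A, with an adjusted p of 0.0615. Adam30 (chr3:98160630-98164169), a testis ADAM, was at 0 in the 3 WT TGF-β1 libraries and at 1.37, 6.02 and 2.44 in PKN2 KO TGF-β1. Its log2 difference was 1.95 (SE 0.51, adjusted p = 0.0214 by limma, 0.0753 by edgeR), and 5 omissions ended the call (WT TGF-β1 A, B or C, PKN2 KO TGF-β1 B or C, adjusted p from 0.0530 to 0.0788).

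In WT cells, TGF-β1 was followed by calls for 7 of the 89 genes, 2 higher and 5 lower, while 38.8% of all 343 genes were called. edgeR called 3 of the 89, Adamts18, Cdh5 and Mfap2, and 39.1% of all genes. Groups did not overlap for 2 genes higher and 5 lower, beside 43.4% of all genes. The median log2 difference was 0 both over the 89 genes and over all 343.

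Adamts18 (chr8:113697126-113848738), a secreted metalloprotease of the ADAMTS family, rose most among these 7 by log2 difference. It was at 0 in all 3 WT vehicle libraries and at 8.26, 8.69 and 8.65 in WT TGF-β1, from 7, 11 and 9 reads. The 3 treated libraries lay within a narrow band, and the untreated ones had no read. The log2 difference was 3.25 (SE 0.45, adjusted p = 2.58e-05 by limma, 2.28e-04 by edgeR). The treated mean was 3.00 times the level of a floor of 3 reads in each vehicle library. Cdh5 rose by a log2 difference of 2.15 (adjusted p = 1.79e-04 by limma, 0.0223 by edgeR), with a treated mean 1.34 times that floor. Cdh5 was tested only because of its reads in WT TGF-β1.

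The 5 genes that fell included matrix proteins and a cadherin. Mfap2 (chr4:141010418-141015984), a microfibril protein that binds fibrillin and TGF-β, was at 4.72, 2.03 and 1.97 in WT vehicle and at 0 in all 3 WT TGF-β1 libraries. Its log2 difference was -1.90 (SE 0.41, adjusted p = 0.00131 by limma, 0.0389 by edgeR). Cdh3 went from 5.90, 2.70 and 5.92 to 0, 1.58 and 0, a log2 difference of -2.03 (adjusted p = 0.00313 by limma, 0.0720 by edgeR). Neither gene's groups overlapped, and both limma calls held under each of the 12 omissions. Mfap2 was tested only because of reads in vehicle libraries, so its refits are no independent support.

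The other 3 decreases were weaker. Spock2 went from 2.36, 4.73 and 3.94 to 0, 1.58 and 0.961 (log2 difference -1.41, adjusted p = 0.0297 by limma), and the call was lost without WT vehicle B, WT vehicle C or WT TGF-β1 A, at adjusted p of 0.0784 to 0.132. Lama2 (chr10:26980036-27619758), the laminin α2 chain, went from 2.36, 5.41 and 2.96 to 1.18, 0 and 0 (log2 difference -1.76, adjusted p = 0.0384 by limma). Lum (chr10:97565128-97572703) went from 2.36, 0 and 4.93 to 0 in all 3 (log2 difference -1.44, adjusted p = 0.0493 by limma), with the untreated values overlapping the treated ones at 0. edgeR gave adjusted p of 0.133, 0.0687 and 0.106. Lama2 was lost without any 1 of 6 libraries (WT vehicle B or C, PKN2 KO vehicle B, WT TGF-β1 B or C, PKN2 KO TGF-β1 C, adjusted p 0.0526 to 0.124). For Lum, the call stayed only without WT vehicle B or PKN2 KO vehicle B, and the other 10 omissions gave adjusted p of 0.0566 to 0.248. Lum too was tested only because of reads in vehicle libraries, so its p-value is a description.

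In PKN2 KO cells, TGF-β1 was followed by calls for 8 of the 89 genes, 3 higher and 5 lower, while 37.3% of all 343 genes were called. edgeR called 2 of the 89, Nrxn2 and Itgad, and 34.1% of all genes. Groups did not overlap for 2 genes higher and 5 lower, beside 41.7% of all genes. The median log2 difference was 0 over the 89 genes and -0.13 over all 343.

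Nrxn2 fell from 9.38, 9.19 and 8.48 in PKN2 KO vehicle to 0, 0.860 and 0 in PKN2 KO TGF-β1, where 1 read was left. The log2 difference was -3.02 (SE 0.41, adjusted p = 2.71e-05 by limma, 0.00304 by edgeR), and the vehicle libraries held 24.5 times the reads of the treated ones, with a 95% counting interval of 4.06 to 1001. Itgad fell from 5.86, 9.19 and 4.24 to 0, 0.860 and 1.22, a log2 difference of -2.16 (SE 0.55, adjusted p = 0.00596 by limma, 0.0297 by edgeR). Both calls held under each of the 12 omissions. Itgb2, the β2 chain that pairs with αD, was 16.3 to 30.7 in PKN2 KO vehicle and 4.30 to 8.54 after TGF-β1. Itgb7, the other leukocyte marker above the limit, was 174.5 to 344.4 and 43.85 to 77.97, and neither it nor Itgb2 overlapped. In WT cells both fell without overlap too, Itgb2 from 16.5 to 23.0 to 5.77 to 9.44 and Itgb7 from 198.0 to 303.3 to 38.7 to 52.9. Itgad overlapped there, at 0, 3.38 and 0.986 and at 0, 0.790 and 0, and was not called. In PKN2 KO cells the remaining leukocyte genes can be set beside these. Over the 16 leukocyte genes under 10 other than Itgad, sums were 3.52 to 9.54 and 2.74 to 7.32 and overlapped. The part of leukocytes in the result was not tested.

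Mfap2 fell again, from 3.52, 2.83 and 1.06 to 0 in all 3 libraries (log2 difference -1.72, adjusted p = 0.00344 by limma, 0.0687 by edgeR), so that all of its 17 reads came from vehicle libraries of either genotype. Muc15 went from 3.52, 6.36 and 7.42 to 0, 3.44 and 0 (log2 difference -1.99, adjusted p = 0.0232 by limma, 0.150 by edgeR). Pcdha7 went from 3.52, 2.83 and 5.30 to 0, 1.72 and 0 (log2 difference -1.77, adjusted p = 0.0292 by limma, 0.201 by edgeR). These last calls each ended with 4 omissions, for Muc15 PKN2 KO vehicle B or C and PKN2 KO TGF-β1 A or C (adjusted p 0.0667 to 0.111), for Pcdha7 PKN2 KO vehicle A or C and PKN2 KO TGF-β1 A or C (adjusted p 0.0573 to 0.114).

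Adamts18 rose in PKN2 KO cells as well, from 2.34, 0.707 and 1.06 in vehicle to 4.10, 8.60 and 4.88 (log2 difference 1.54, SE 0.45, adjusted p = 0.0129 by limma, 0.0600 by edgeR). The ratio of reads was 5.03 with a 95% counting interval of 1.64 to 20.6. Leaving out PKN2 KO vehicle B or PKN2 KO TGF-β1 B took it just over the threshold, with adjusted p of 0.0530 and 0.0507. Clec7a (chr6:129461591-129472779), the β-glucan receptor dectin 1 of myeloid cells, was read only in PKN2 KO TGF-β1, at 0, 3.44 and 2.44 (log2 difference 1.31, adjusted p = 0.0325 by limma, 0.121 by edgeR). It was tested only because of these reads, so its p-value is a description. Mmp10 (chr9:7502352-7510240) was at 0 in all vehicle libraries, at 0, 0.790 and 0.961 in WT TGF-β1 and at 0, 3.44 and 3.66 in PKN2 KO TGF-β1 (log2 difference in PKN2 KO 1.46, adjusted p = 0.0361 by limma, 0.0733 by edgeR). Mmp10 was tested only because of reads with TGF-β1, so its p-value is a description as well. For both Clec7a and Mmp10, library A overlapped vehicle at 0. Clec7a was lost without any 1 of 5 libraries (PKN2 KO vehicle A, B or C, PKN2 KO TGF-β1 B or C, adjusted p 0.0705 to 0.149). Mmp10 was lost without those or WT vehicle C (adjusted p 0.0502 to 0.171).

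**Figure D5:**
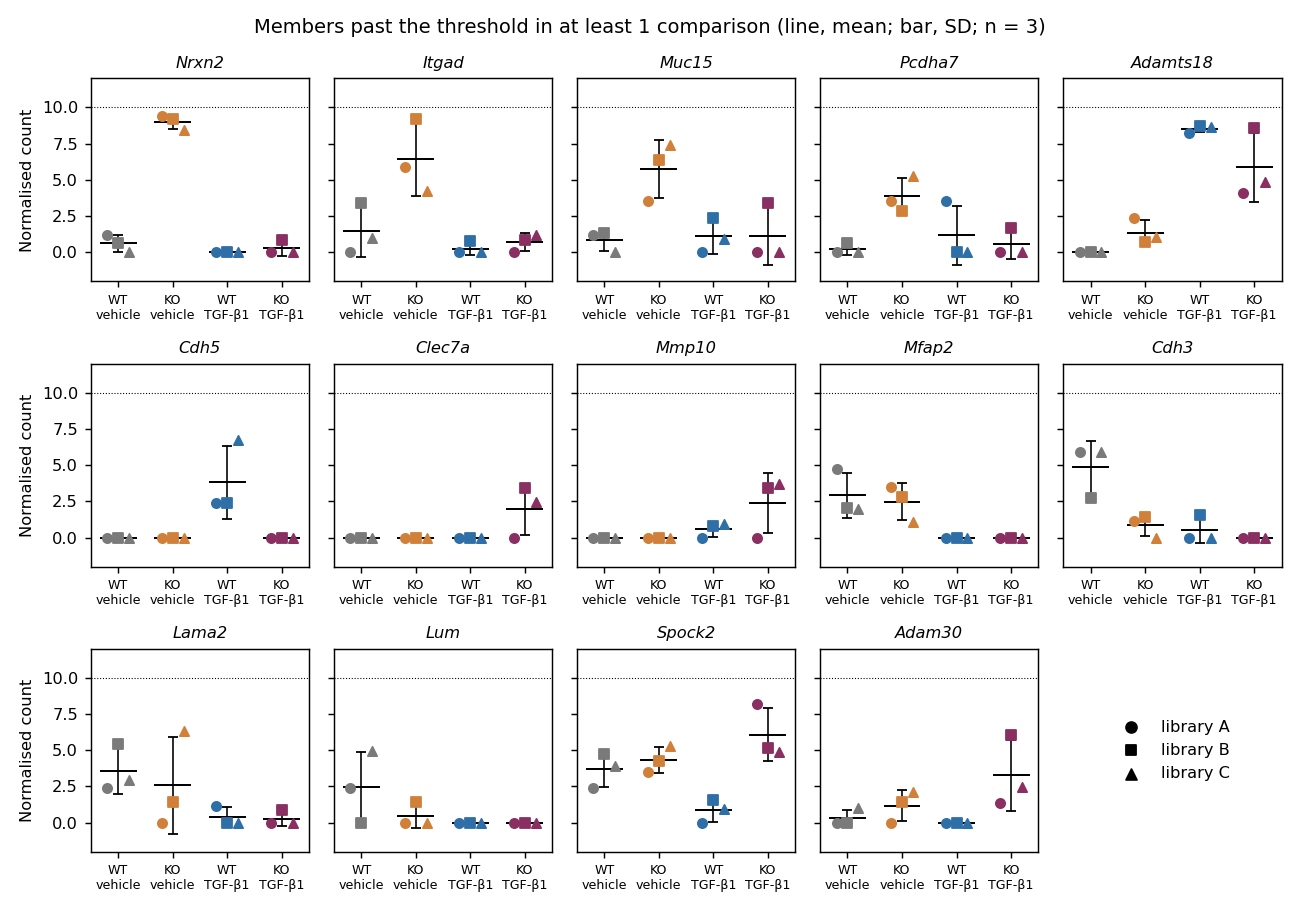
Normalised count in every library for the 14 genes called in at least 1 comparison, by group, with library A as circles, B as squares and C as triangles, the group mean as a line and the SD as a bar (n = 3), and the limit of 10 dotted. Nrxn2 is high in PKN2 KO vehicle alone (8.48 to 9.38), Adamts18 after TGF-β1 in both genotypes, Cdh5 in WT TGF-β1 alone, and Mfap2 is read in vehicle alone.

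The test of whether the TGF-β1 response differed between genotypes called 2 of the 89 genes, beside 2.92% of all 343, and edgeR called 0 of the 89 and 0.292% of all genes. The genes called by limma were Cdh5, with an interaction of -2.15 (SE 0.51, adjusted p = 0.0381 by limma), and Nrxn2, with -2.40 (SE 0.58, adjusted p = 0.0381 by limma). In edgeR their adjusted p was 0.9998 each. The 2 methods ask different questions at such counts, since limma compares differences on the log2(value + 1) scale and edgeR compares ratios, which are undefined where groups are at 0. Cdh5 stayed called only without WT TGF-β1 B and Nrxn2 only without WT vehicle A, and the other 11 omissions for each gave adjusted p from 0.0524 to 0.115 and from 0.0566 to 0.125. The third smallest p was that of Adamts18 (interaction -1.71, adjusted p = 0.337 by limma). The median interaction was -0.08 over the 89 genes and -0.08 over all 343.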

How the data were processed

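RNA was amplified with a targeted panel (QIAseq) and sequenced as a 12-plex pool. The submitters' processing notes name STAR, mm10 and DESeq2 1.32. The authors deposited a table of raw counts per gene and 2 tables of normalised counts, a signal in which the counts of a library are scaled by 1 factor derived from pre-determined reference genes. In the raw table, 6 columns under a repeated name were not used. Reads were recovered from the normalised counts and were whole for 100% of values within 0.001, and they were equal to the raw counts for all 420 genes in the 6 usable columns. Symbols were matched for 420 identifiers with GENCODE (GRCm38).

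Members, gene lists and the limit of 10 were chosen with earlier results of these data known. Tests used limma 3.58.1 (lmFit, contrasts, eBayes with trend and robust estimation) in R 4.3.3 on log2(normalised count + 1), tested on simulated data. Alternatives were pseudocounts of 0.5 and 5, a filter of at least 1 read in at least 3 libraries, TMM, median-of-ratios and total-count scaling, edgeR 4.0.16 and DESeq2 1.42.0 on the recovered reads, other spread estimates, each library left out, and the library letter as a block. The block together with edgeR was added after seeing the data. Named genes were those past the threshold, the 10 highest by mean, those next to the limit, those read in all 12 libraries, the 3 smallest p-values per comparison, and marker and cluster members. Intervals and floors cover counting error only, and a floor covers only that of the lower group. A check of promoter base composition was not made, because 105 of the 166 genes had a promoter entry. A few panel genes are counted in the totals and not reported here by name.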

Additional observations from a re-analysis of the deposited data

Results flagged for a closer look

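For 2 genes the interaction term of limma passed the threshold, that is, the difference on TGF-β1 in PKN2 KO minus that in WT. The call of each was lost in 11 of 12 omissions of a library, and 0 of these genes were called with the filter of at least 1 read in at least 3 libraries. Cdh5 had an interaction of -2.15 on the log2(normalised count + 1) scale (adjusted p = 0.0381), since it was at 2.36, 2.37 and 6.73 in WT TGF-β1 and at 0 in the other 9 libraries. Nrxn2 had an interaction of -2.40 (adjusted p = 0.0381), since it was at 8.48 to 9.38 in PKN2 KO vehicle and at 0 to 1.18 in the other 9 libraries. Neither was called by edgeR on the reads, where the unadjusted p was 0.9996 for Cdh5 and 0.747 for Nrxn2. Both rest on few reads, 12 in all for Cdh5 and 32 for Nrxn2, and Cdh5 was tested only because of reads in the 1 group where it is high.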

How the results depend on the processing

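The number of genes under 10 was 165 with reads in place of normalised counts, 172 with CPM, 168 with TMM and 169 with median-of-ratios scaling, 141 for a limit of 5, 189 for a limit of 20 and 166 to 169 when a library was left out. The number at 0 was then 77 to 81. The count of these genes called moved with the method. For PKN2 KO against WT in vehicle it was 3, and became 1 with a pseudocount of 0.5, 5 with a pseudocount of 5, 1 with edgeR, 1 with DESeq2 (16 of the 89 tested after its own filter), 6 with the replicate block, 1 with edgeR and the replicate block, and 1 to 5 when a library was left out (1 without WT vehicle A or C, PKN2 KO vehicle A, WT TGF-β1 C or PKN2 KO TGF-β1 C, 5 without WT vehicle B or PKN2 KO vehicle B). For PKN2 KO against WT after TGF-β1 it was 3, and became 0 with edgeR, 0 with DESeq2, 0 with edgeR and the replicate block, and 1 to 5 when a library was left out (1 without WT TGF-β1 A, 5 without PKN2 KO TGF-β1 A). For TGF-β1 in WT it was 7, and became 3 with edgeR, 1 with DESeq2, 1 with edgeR and the replicate block, and 4 to 8 when a library was left out (4 without WT vehicle C). For TGF-β1 in PKN2 KO it was 8, and became 2 with edgeR, 1 with DESeq2, 2 with edgeR and the replicate block, and 4 to 9 when a library was left out (5 without PKN2 KO vehicle C, 4 without PKN2 KO TGF-β1 C). For the interaction it was 2, and became 0 with a pseudocount of 0.5, 1 with a pseudocount of 5, 0 with at least 1 read in at least 3 libraries, 1 with median-of-ratios scaling, 1 with total-count scaling, 0 with edgeR, 0 with DESeq2, 0 with edgeR and the replicate block, and 0 to 1 when a library was left out (1 without WT vehicle A, WT TGF-β1 B or PKN2 KO TGF-β1 A). The cause of these changes was not tested.

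Over all genes, the calls in vehicle went from 36 to 90 with the replicate block, 94 with edgeR and the block, and 18 to 42 when a library was left out. After TGF-β1 they went from 37 to 66 with total-count scaling, 96 with the block and 92 with edgeR and the block. For the interaction they went from 10 to 1 with a pseudocount of 0.5, 1 with edgeR, 6 without the trend, 32 with the block, 40 with edgeR and the block, and 0 to 11 when a library was left out.

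Of the 23 calls on single genes none changed direction. With the replicate block all 23 kept their side of the threshold, with edgeR 6 did, with edgeR and the block 4 did, with DESeq2 3 of 18 did, and over 276 refits without a library 193 did. The letters A, B and C are shared by the groups, but the correlation of deviations from the group means over 18 same-lettered pairs ranged from -0.07 to 0.50. Over genes averaging 10 or more it was 0.32 to 0.76 for the 12 pairs of A or B and -0.15 to 0.12 for the 6 pairs of C. Because the C libraries did not deviate together, a pairing was not taken as given. Even so, over the same genes, 10 of the 12 libraries had their highest mean correlation with the other groups' libraries of their own letter. TMM and median-of-ratios scaling changed the mean log2 factors between genotypes by -0.18 and -0.23 in vehicle and by -0.11 and -0.13 after TGF-β1. Total counts changed those between TGF-β1 and vehicle by -0.25 in WT and -0.20 in PKN2 KO. Fitted differences of low genes moved less, because 1 is added to each count before the log. In vehicle Nrxn2 went from 2.70 to 2.595 with TMM and 2.559 with median-of-ratios scaling. Under the first 2 of these scalings the vehicle calls were 1 higher and 1 lower, against 2 and 1. A pseudocount of 5 brought the TGF-β1 difference of Adamts18 in WT from 3.25 to 1.44 and 0.5 brought it to 4.18. Depth limits what can be seen, since 50 of the 89 genes never had more than 3 reads in a library.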
